A study of Mus musculus with 16 samples.

Results

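The 10 core genes of the circadian clock named here were described across the cells of the female mouse hypothalamus and preoptic area (hypothalamus-POA). The set was fixed by gene symbol and held 10 of the 28683 genes in the files, all 10 of which were detected: Per1, Per2, Per3, Cry1, Cry2, Arntl (also called Bmal1), Clock, Nr1d1, Nr1d2 and Dbp. The data were Drop-seq libraries, in which single cells are caught in droplets and each captured mRNA is counted once by a unique molecular identifier (UMI). There were 16 libraries of 1 mouse each, and all mice were female. Wild-type mice had the strain label CD-1;129P2 mixed (wild-type) and were Cre-negative littermates per the study's methods. They received oil (3 libraries) or tamoxifen, a selective estrogen receptor modulator (5 libraries). Esr1 cKO mice had the strain label CD-1;129P2 Esr1cKO and received oil (4 libraries) or tamoxifen (4 libraries). These mice carried an Nkx2-1-Cre transgene and floxed Esr1, the gene of estrogen receptor alpha, so that deletion was limited to cells with a history of Nkx2-1 expression. Injections were subcutaneous and daily for 4 weeks from an age of 8 to 10 weeks, and tissue was taken 2 hr after the last injection. The study ran its 4 groups side by side over 4 days, 4 mice a day, though the labels do not give the day of a library. All mice were kept in a light-dark cycle, and each gave cells at a single time, so no library series over the day was analysed here.

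The mammalian clock is a feedback loop of transcription. ARNTL and CLOCK form a dimer that binds E-box motifs and drives the Per and Cry genes, whose proteins return to the nucleus and repress that dimer. In a second loop, the nuclear receptors NR1D1 and NR1D2 (REV-ERB alpha and beta) repress Arntl by competing with ROR receptors, and DBP is an output factor that binds D-box motifs. The suprachiasmatic nucleus of the hypothalamus is the master pacemaker of the body, and its neurons receive light input and signal to each other through the peptide VIP and its receptor VIPR2. Glia and blood vessel cells also hold clocks of their own.

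The promoters below are shown because they carry the letters through which the loops above are known to work. RefSeq windows (GRCm38.p6) from 250 bases before to 50 bases after an annotated start were found for 9 of the 10 genes, 13 windows in all. Both strands were searched for the E-box CACGTG, the D-box words TTATGTAA and TTACGTAA, the ROR and REV-ERB core words TAGGTCA and TGGGTCA, and the cAMP response element TGACGTCA. The E-box was in 7.15% of all 32851 windows in the table, a D-box word in 1.06%, a ROR and REV-ERB core in 6.45% and the cAMP response element in 1.79%. Among the 13 windows of the clock genes, an E-box stood in 2, a D-box in 1, a ROR and REV-ERB core in 1 and the cAMP response element in 0. The lines give, 5′ to 3′ in the direction of the gene, the 250 bases before the start, with capitals marking the motif. The Per1 stretch is chr11:69098699-69098948 on the plus strand with an E-box 166 bases before the start, at a start within the gene's span. The Cry1 stretch is chr10:85185055-85185304 on the minus strand with an E-box 60 bases before the start. The Per3 stretch is chr4:151044666-151044915 on the minus strand with D-boxes 205 and 158 bases before the start.
Per1: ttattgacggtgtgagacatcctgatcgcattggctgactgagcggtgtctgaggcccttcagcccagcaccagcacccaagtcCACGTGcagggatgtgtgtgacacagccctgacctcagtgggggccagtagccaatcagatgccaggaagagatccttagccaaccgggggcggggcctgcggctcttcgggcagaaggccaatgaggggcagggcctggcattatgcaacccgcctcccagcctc
Cry1: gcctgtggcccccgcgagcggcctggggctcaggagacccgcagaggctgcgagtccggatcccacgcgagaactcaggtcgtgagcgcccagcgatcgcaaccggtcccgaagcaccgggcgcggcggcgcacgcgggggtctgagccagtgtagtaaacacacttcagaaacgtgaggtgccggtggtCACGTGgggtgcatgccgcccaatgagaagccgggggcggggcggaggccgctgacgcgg
Per3: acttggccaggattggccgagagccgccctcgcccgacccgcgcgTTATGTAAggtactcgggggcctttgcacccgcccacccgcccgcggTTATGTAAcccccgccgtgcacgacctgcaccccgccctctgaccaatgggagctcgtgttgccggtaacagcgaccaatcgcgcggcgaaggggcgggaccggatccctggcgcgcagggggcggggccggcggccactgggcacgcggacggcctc

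The ROR and REV-ERB core of Arntl lay 30 bases after an annotated start. A match is a run of letters and not a bound site, and the windows are short. In the GENCODE vM21 annotation (GRCm38), Per1 spans chr11:69095217-69109960, Per2 chr1:91415982-91459324, Per3 chr4:151003652-151044665, Cry1 chr10:85131700-85185064 and Cry2 chr2:92403646-92434043. Arntl spans chr7:113207465-113314126, Clock chr5:76209868-76304792, Nr1d1 chr11:98767932-98775333, Nr1d2 chr14:18204054-18239127 and Dbp chr7:45705088-45710203. Exons of 4 of the genes overlap exons on the opposite strand, by 539 bases for Dbp with Sphk2, 295 for Cry2 with D930015M05Rik, 263 for Nr1d1 with Thra and 33 for Arntl with Gm45355. Whether counting used strand is not given in the sources used here, so reads from such a stretch may belong to the partner gene. On the same strand, the 41014 bases of Per3 lie within Camta1. Clock overlaps Gm43658 by 4176 bases and Ube2n-ps1 by 459 on its own strand. Exons overlap by 0 bases in these cases, and whether reads of Camta1 enter the counts of Per3 was not tested.

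The filters of the study left 55675 cells with 1717573 to 5457033 UMIs a library. Clustering with the clock genes left out gave 9 cell types by markers: 9143 neurons, 13576 astrocytes, 3377 ependymal cells, 9219 oligodendrocytes, 4446 polydendrocytes (oligodendrocyte precursors), 5391 microglia, and 7193 endothelial cells, 2362 mural cells and 968 fibroblasts of the vessels and coverings. The same name came out for 99.5% of cells with the clock genes among the clustering features. Libraries 10 (wild-type, oil) and 11 (Esr1 cKO, tamoxifen) stood apart on the first principal component of all-cell levels, at 82.4 and 79.8 against -25.0 to -5.37 in the other 14, and their files list only barcodes with at least 100 genes. Levels are in CPM, the UMIs of a gene scaled to the same total in every library or cell type. Clock was at 41.9 and 50.5 CPM in these 2 libraries and at 96.4 to 130 CPM elsewhere. Fits were therefore also run without these 2 libraries, and such values are given where stated. Barcodes shared between libraries covered 1717 cells, 7.45% to 11.1% of cells in libraries 13 to 16 and 0.228% to 1.72% in the others. Esr1 itself was 49.6 ± 37.9 CPM in wild-type oil and 53.1 ± 10.9 in wild-type tamoxifen libraries (SD). It was 35.6 ± 2.13 in Esr1 cKO oil and 42.2 ± 22.4 in Esr1 cKO tamoxifen libraries. Wild-type oil libraries were at 16.4 (library 10), 41.7 and 90.8 CPM, and Esr1 cKO oil libraries at 33.2 to 38.2 CPM. Wild-type tamoxifen libraries were at 40.5 to 69.2 CPM. Esr1 cKO tamoxifen libraries were at 10.1 (library 11), 44.1, 54.3 and 60.3 CPM. The 3′ tags counted here need not lie in the deleted part of the gene, so this is no test of the deletion.

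Depth for each clock gene was modest. Over all cells the summed UMIs ran from 899 for Dbp to 6446 for Clock. Levels over all cells were 46.3 ± 9.51 CPM for Per1, 60.1 ± 10.8 for Per3, 56.2 ± 21.5 for Nr1d1 and 109 ± 26.0 for Clock (SD, n = 16). Nr1d1 had a wide range between mice, with a lowest library at 18.2, a median of 56.4 and a highest at 98.7 CPM (library 10). Without libraries 10 and 11 its highest level was 80.8 CPM. CPM values are not divided by transcript length and are compared only within a gene. Between cell types, the summed UMIs of a type were set against the sum of the remaining cells in each library, with the library as a block (edgeR quasi-likelihood test, Benjamini-Hochberg over all genes of that type).

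Clock genes differed widely between cell types. Astrocytes were higher than the other cells for 8 of the 10 genes and ependymal cells for 8, whereas oligodendrocytes were lower for 9, and neurons and microglia for 7 each. In all, 68 of 90 tests passed adjusted p 0.05, of which 34 were higher and 34 lower. DESeq2 called 64 tests, 25 higher and 39 lower. These counts stand on a high background, since 29.5% of tests over all genes and types passed as higher and 38.9% as lower. The share of all genes called in either direction was 81.7% in neurons, 73.5% in astrocytes, 64.6% in ependymal cells, 75.4% in oligodendrocytes, 64.6% in polydendrocytes, 73.9% in microglia, 76.5% in endothelial cells, 54.6% in mural cells and 47.8% in fibroblasts. The number of clock genes called was therefore near the background in most types, and the sizes and directions below carry the description. The median log2 fold change of the 10 genes was 0.90 in astrocytes and 0.88 in ependymal cells, against -0.08 and -0.05 over all genes tested. In oligodendrocytes it was -0.80 against -0.09, in microglia -0.52 against -0.20 and in neurons -0.43 against -0.00.

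**Figure D1:**
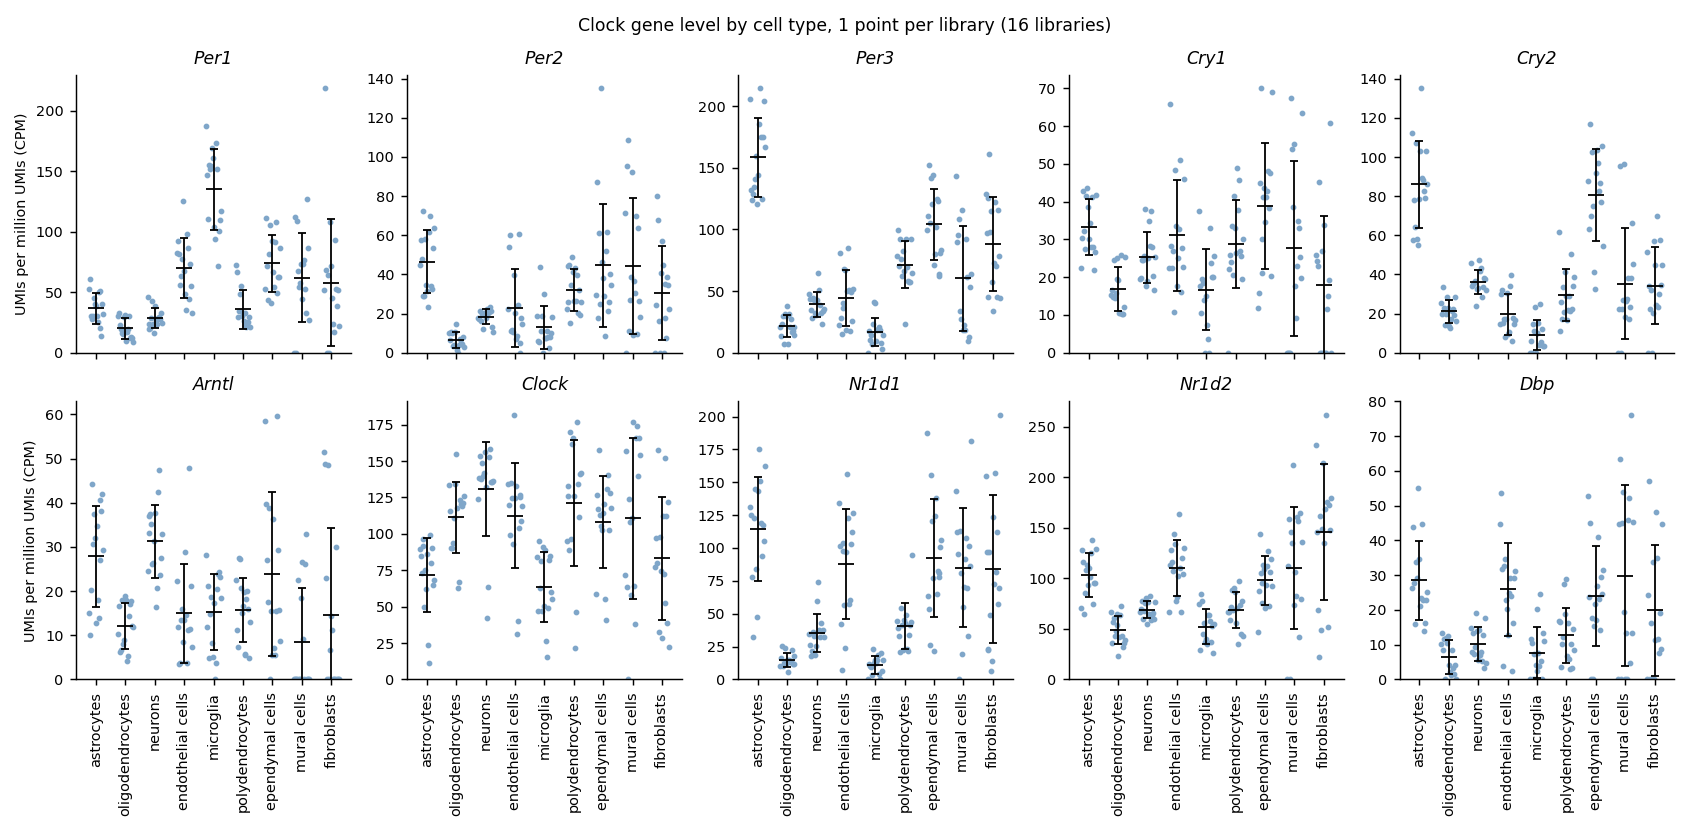
Level of each clock gene (CPM) in 9 cell types, with 1 point per library (16 libraries) and bars for mean ± SD. Astrocytes lie highest for Per3 at 120.8 to 214.9 CPM, whereas microglia lie highest for Per1 at 71.4 to 187 CPM.

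Among the Per genes, which encode the repressors that accumulate over each cycle, Per3 and Per1 had opposite patterns in astrocytes and microglia. Per3 in astrocytes had a lowest library at 120.8, a median of 151.9 and a highest at 214.9 CPM (library 11), against a mean of 45.1 in the other cells. All 16 libraries were higher in astrocytes, and the log2 fold change was 2.0 ± 0.08 (SE; edgeR adjusted p = 1.2e-24). Per3 was also higher in ependymal cells, a cluster that held tanycyte-like cells as well (6 of 7 tanycyte markers were higher in it; 104 ± 28.8 CPM, log2 fold change 0.92), and lower in microglia (16.7 ± 11.4 CPM, -1.52) and oligodendrocytes (21.8 ± 8.99 CPM, -1.21). Per1 in microglia, the resident immune cells of the brain, had a lowest library at 71.4, a median of 149.6 and a highest at 187 CPM. The mean in the other cells was 39.8 CPM, and all 16 libraries were higher in microglia (2.12 ± 0.10; edgeR adjusted p = 1.92e-24). Per1 was also higher in endothelial cells (0.91) and ependymal cells (0.87) and lower in oligodendrocytes (-0.95) and neurons (-1.05). Per2, which shares its repressor role with Per1, was 46.5 ± 16.1 CPM in astrocytes against 19.97 in the other cells (1.39 ± 0.11). In oligodendrocytes Per2 was 6.43 ± 3.96 CPM (-1.68), with 53 UMIs over all libraries.

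The Cry genes, which encode the partners of the PER proteins, differed from each other. Cry2 was 86.1 ± 22.2 CPM in astrocytes against 32.9 ± 6.09 in the other cells (1.58 ± 0.08), higher in all 16 libraries. Its level in ependymal cells was 80.6 ± 23.7 CPM (1.26). Microglia held the lowest level of Cry2 at 8.92 ± 7.70 CPM with 36 UMIs (-1.84), and endothelial cells were lower as well (-0.99). Cry1 varied less, with a range of mean levels from 16.6 CPM in microglia to 38.8 CPM in ependymal cells. It was higher in ependymal cells (0.72), astrocytes (0.53) and endothelial cells (0.44), and lower in oligodendrocytes (-0.33). The call of Cry1 in endothelial cells was lost with scaling by total UMIs (0.19) and with DESeq2 (0.28).

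In neurons the activators were higher where most of the other clock genes were lower. Arntl was 31.2 ± 8.23 CPM in neurons against 18.0 ± 7.78 in the other cells, higher in 15 of 16 libraries (0.80 ± 0.12). Clock was 131 ± 32.2 CPM in neurons against 98.6 ± 24.2 in the other cells, higher in all 16 (0.35 ± 0.05; edgeR adjusted p = 5.93e-07). Neurons were thus higher for both activators and lower for 7 of the other 8 genes, the exception being Cry1 at -0.16 ± 0.10 (edgeR adjusted p = 0.146). Astrocytes were lower for Clock, at 71.7 ± 25.2 against 115 ± 27.3 CPM (-0.54), and higher for Arntl (0.51). Arntl was lower in oligodendrocytes (-0.56, lower in 16 of 16 libraries), in polydendrocytes (-0.61) and, on 20 UMIs, in mural cells (-0.83). In oligodendrocytes Clock was called higher (0.45), although its CPM was 111 ± 24.6 against 109 ± 27.4 in the other cells, and with scaling by total UMIs the value was 0.01 and not called. The same scaling ended the call of Clock in endothelial cells (0.26 to 0.00).

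The REV-ERB genes and Dbp, which are direct targets of the activators, had their highest mean CPM in astrocytes, fibroblasts or mural cells. Nr1d1 was 115 ± 39.6 CPM in astrocytes against 47.2 ± 18.2 in the other cells (1.44 ± 0.08), higher in all 16 libraries. It was higher in endothelial cells (0.99) and ependymal cells (0.88), and lower in microglia (11.2 ± 6.90 CPM, -2.06) and oligodendrocytes (14.8 ± 5.26 CPM, -1.69). Nr1d2 was highest in fibroblasts of the brain covering and vessels at 146 ± 67.6 CPM (0.82) and was also higher in endothelial cells (0.79). Dbp was 28.6 ± 11.4 CPM in astrocytes against 13.9 ± 3.77 in the other cells (1.19 ± 0.13). It was also higher in endothelial cells (1.0), mural cells (0.95) and ependymal cells (0.92). The mean of Dbp in mural cells was 29.9 ± 26.1 CPM on 40 UMIs, with 4 libraries at 0. The 4 higher calls in mural cells (Per1, Nr1d1, Nr1d2 and Dbp) were not called with DESeq2, where their values were 0.14 to 0.59.

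Ranking the cell types by mean CPM within each gene gave 80 pairs of neighbours, of which 7 differed in an exact sign-flip permutation test over libraries (two-sided, Benjamini-Hochberg over the 80). For Per1, microglia exceeded ependymal cells by 61.1 CPM (exact adjusted p = 0.00244). Astrocytes exceeded ependymal cells by 54.4 CPM for Per3 (exact adjusted p = 0.00586), and neurons exceeded oligodendrocytes by 17.4 CPM (0.00488). For Cry2 the step was from ependymal cells to neurons, 44.3 CPM (exact adjusted p = 0.00244), so that astrocytes and ependymal cells formed an upper pair that did not differ from each other beyond its spread (5.57 CPM, exact adjusted p = 0.609). Nr1d1 had steps from fibroblasts to polydendrocytes (43.0 CPM, exact adjusted p = 0.0363) and from neurons to oligodendrocytes (20.6 CPM, 0.00244). The step of Nr1d2 lay between ependymal cells and neurons (29.2 CPM, exact adjusted p = 0.00936). No neighbours differed for Per2, Cry1, Arntl, Clock or Dbp, whose orders opened with astrocytes, ependymal cells, neurons, neurons and mural cells.

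Leaving out libraries 10 and 11 gave 61 calls by cell type, and 10 of the 68 calls were lost. These were Per1 in astrocytes, Cry1 in oligodendrocytes, Per2, Nr1d2 and Dbp in microglia, Nr1d2 and Dbp in polydendrocytes, Per1 and Arntl in mural cells and Nr1d1 in fibroblasts. Scaling by total UMIs lowered the median fold of all genes by 0.44 in oligodendrocytes, 0.39 in microglia, 0.25 in endothelial cells and 0.18 in astrocytes on the log2 scale. The large values kept their side, with Per3 in astrocytes at 1.82 and Nr1d1 in oligodendrocytes at -2.12.

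The other genes of the clock pathway were read from a list of 24. In astrocytes 10 of the 19 tested were higher and 5 lower, with a median of 0.42 against -0.08 over all genes. Rorb (2.27), Npas2, a CLOCK homologue (1.75), Rora (1.58) and the protease gene Usp2 (1.5) were higher there. In ependymal cells 12 of 21 were higher and 3 lower, and in oligodendrocytes 4 of 18 were higher and 8 lower. Microglia had 9 of 20 higher and 6 lower, with Csnk1e, a kinase of PER proteins (1.81), and Nfil3, a repressor at D-boxes (1.75), higher, and Rorb (-2.11) and Bhlhe40, a repressor of E-box targets (-2.05), lower. Neurons had 9 of 21 in each direction. Over all genes, 3893 of 12186 were higher and 5063 lower in astrocytes, and 3796 of 12341 and 4174 in ependymal cells. These counts were 3895 of 11881 and 5059 in oligodendrocytes, 3516 of 11644 and 5089 in microglia, and 5278 of 13061 and 5394 in neurons.

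Per1 is also known as a gene that responds rapidly to stimuli, so the immediate early genes were read beside it. In microglia, where Per1 was highest, 16 of the 18 immediate early genes tested were higher and 1 lower, with a list median of 2.05 against -0.20 over all genes, Ier5 at 4.84 and Egr2 at 4.26, and Npas4 at -4.45. In endothelial cells 15 of 18 were higher, and in ependymal cells 13 of 19. In neurons, astrocytes and oligodendrocytes, where Per1 was lower, 15 of 19, 18 of 18 and 17 of 19 immediate early genes were lower. Mural cells had 16 of 18 higher and fibroblasts 15 of 18. Polydendrocytes, where Per1 was lower (-0.53), had 7 of 18 higher and 8 lower. Over all genes, 4508 of 12436 were higher and 5010 lower in endothelial cells, and 1762 of 11421 and 4476 in mural cells. In fibroblasts these counts were 1573 of 11492 and 3923, and in polydendrocytes 3620 of 11602 and 3879. The counts of the other types are given above. Genes of the glucocorticoid response were higher for 6 of 10 and lower for 3 in microglia, higher for 4 of 10 and lower for 4 in astrocytes, and lower for 9 of 10 in neurons. Of the 6 cold and heat response genes, 6 were lower in astrocytes, and in microglia 3 were higher and 1, the chaperone gene Hsph1, was lower (-2.16). Per the study's methods, the tissue was digested with papain and triturated before cells were caught in droplets. The part of these responses, or of that handling, in the level of Per1 was not tested.

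At a finer clustering, chosen after the cell types had been seen, 2 clusters with known ties to daily and seasonal timing were read against all other cells. The pars tuberalis, a strip of pituitary tissue at the base of the hypothalamus, reads the night length through melatonin. A cluster of 199 cells had 6 of 7 markers of that tissue, led by Tshb and Cga, and is called pars tuberalis-like. Per1 in it had a lowest library at 0, a median of 299.3 and a highest at 584.6 CPM over 13 libraries, against 45.7 ± 8.39 in the other cells. It was higher in 12 of 13 libraries (2.03 ± 0.27; edgeR adjusted p = 1.98e-12). Per2 (64.8 ± 58.6 CPM, 1.19 ± 0.38) and Cry2 (122.5 ± 114 CPM, 0.97 ± 0.33) were higher too, on 19 and 30 UMIs. These 3 of 10 genes stood against 3.23% of all genes called higher in these cells, whose median fold over all genes was -0.88. With scaling by total UMIs that median was -0.24. Without libraries 10 and 11, Cry2 was 0.59 and not called. The other clock genes gave 4 higher and 2 lower of 19, with Timeless at 4.84, which is in the marker list, Hlf at 2.22 and Bhlhe40 at 1.85. Immediate early genes were higher for 14 of 19.

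Tanycytes are glia of the third ventricle floor that sense blood-borne signals. A cluster of 1389 cells with 7 of 7 tanycyte markers (tanycyte-like) was higher for 5 of the 10 clock genes, against 17.8% of all genes called higher. Per3 had a lowest library at 48.4, a median of 118.4 and a highest at 168 CPM against 58.3 ± 10.1, higher in all 16 (0.93 ± 0.13). Cry2 (1.04), Nr1d1 (0.95), Dbp (0.88) and Nr1d2 (0.41) were the others, whereas Per1 (0.25, edgeR adjusted p = 0.240) was not called. Dbp was 0.69 and not called without libraries 10 and 11. The other clock genes gave 9 higher and 4 lower of 19, and the immediate early genes 11 higher and 6 lower of 19.

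Neurons were divided into 25 clusters, again with the clock genes left out. A cluster of 876 neurons from all 16 libraries was led by Vipr2, Prokr2, Rgs16, Igfbp5 and Six6. Of 11 suprachiasmatic markers, 10 were higher in it, the exception being Grp, and it is called Vipr2 neurons or suprachiasmatic-like here. It was 3.55% to 17.9% of the neurons of a library. The summed level of the 11 markers was 8103 to 25691 CPM in Vipr2 neurons and 1444 to 14914 CPM in other neurons. Summed markers of astrocytes were 39.3 to 444 CPM against 259 to 554 in other neurons, with medians of 230.5 and 419.8, and those of microglia had medians of 41.7 and 60.2 CPM.

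Vipr2 neurons held high levels of Per1, Per2 and both REV-ERB genes. Of the 10 clock genes, 8 passed the filter on low counts, and all of these were called higher, against 18.8% of all genes tested. The filter reads the same counts, and a gene can pass it through its level in Vipr2 neurons alone. That number of calls and the p-values below are therefore a description of these 8 genes. With no filter the log2 fold change was 2.55 for Per2, 2.07 for Nr1d1 and 1.52 for Per1. Per2, which light is known to induce in the suprachiasmatic nucleus, had a lowest library at 0, a median of 84.4 and a highest at 147 CPM, against 13.1 ± 2.69 in the other neurons. It was higher in 15 of 16 libraries, the exception being library 16 with 0 UMIs (2.83 ± 0.22; edgeR adjusted p = 6.96e-21). Nr1d1 had a lowest library at 29.2, a median of 140.5 and a highest at 377 CPM (library 10), against 26.8 ± 7.88 (2.35 ± 0.19; edgeR adjusted p = 3.3e-20). It was higher in 15 of 16 libraries. Per1 had a lowest library at 0, a median of 72.3 and a highest at 166 CPM against 24.2 ± 6.98, higher in 14 of 16 (1.79 ± 0.21; edgeR adjusted p = 7.33e-12). Per1 and Per2 were thus lower in neurons as a whole than in other cells, yet high in this neuronal cluster.

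**Figure D2:**
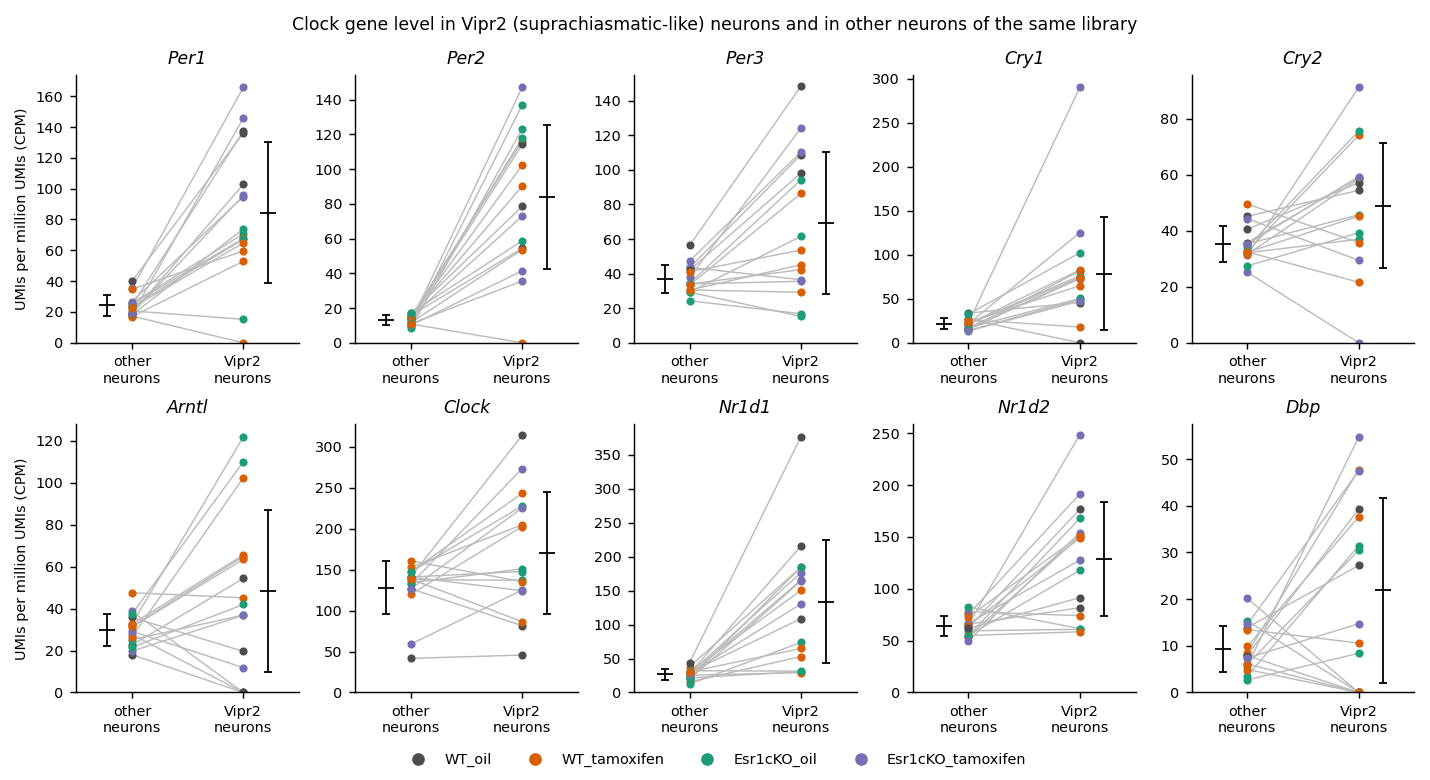
Level of each clock gene (CPM) in other neurons and in Vipr2 (suprachiasmatic-like) neurons, with lines joining the values of 1 library, colours for the 4 groups and bars for mean ± SD over 16 libraries. Per2 was higher in Vipr2 neurons on 15 of 16 lines, with means of 84.0 and 13.1 CPM.

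Nr1d2 was 129 ± 54.7 against 64.0 ± 9.42 CPM (1.10 ± 0.15) and Per3 69.2 ± 41.2 against 37.0 ± 8.19 CPM (0.90 ± 0.20). The activators were higher too, with Arntl at 48.4 ± 38.7 against 29.9 ± 7.78 CPM (0.85 ± 0.24) and Clock at 170.4 ± 74.4 against 128 ± 32.1 CPM (0.54 ± 0.13). Cry2 was 48.9 ± 22.3 against 35.3 ± 6.52 CPM (0.56 ± 0.22; edgeR adjusted p = 0.0347), and this call was lost with scaling by total UMIs (0.45), DESeq2 (0.50) and no filter on low counts (0.29). With no filter Clock was 0.28 and not called. Cry1 and Dbp did not pass the filter. Cry1 was 78.3 ± 63.9 against 21.5 ± 6.15 CPM, and Dbp 21.8 ± 19.8 against 9.26 ± 4.89 CPM, higher in 14 and 10 of 16 libraries. Without libraries 10 and 11 the values of Per2, Per1 and Clock were 2.66, 1.63 and 0.49 and all 7 genes that then passed the filter were called, with Nr1d1 under the filter. With doublets removed, Per2 and Arntl did not pass the filter, and the other 6 genes were called. With shared barcodes removed, Per2, Arntl and Nr1d1 did not pass the filter, and the other 5 genes were called.

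The share of cells with at least 1 UMI was read as a description, with exact Clopper-Pearson intervals of 95% that cover counting error only. Per2 had a UMI in 12.2% (10.1% to 14.6%) of Vipr2 neurons and 2.67% (2.34% to 3.04%) of other neurons, at median depths of 1404 and 1504 UMIs. Nr1d1 had one in 17.1% (14.7% to 19.8%) against 5.09% (4.63% to 5.59%). After thinning every cell to 500 UMIs, which left out 61 Vipr2 neurons and 1756 other neurons, the shares were 4.54% against 0.753% for Per2 and 6.99% against 1.54% for Nr1d1. The share was higher in Vipr2 neurons for each clock gene with and without thinning, and the same reading over all genes was not made. The intervals stood apart for 6 of the 10 genes with all UMIs and for 6 after thinning. Among those that overlapped with all UMIs, Cry2 was at 7.19% against 6.68% and Clock at 21.7% against 19.7%. Cells of 1 mouse are not independent, so the intervals give no spread between mice. Among cell types, Per1 had a UMI in 8.63% of microglia and 1.70% of oligodendrocytes at median depths of 615 and 753 UMIs. After thinning the shares were 6.2% and 0.932%.

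Other genes of the pathway were read in Vipr2 neurons too, under the same filter on low counts. A listed gene can pass it through its level in Vipr2 neurons alone. The counts and medians here are therefore a description of the genes tested. Over all genes 6051 were tested, of which 1140 were higher and 1123 lower. Of the 24 other clock genes, 14 were tested, of which 6 were higher and 0 lower, with a median of 0.24 against 0.01 over all genes. Rora (2.82) and Rorb (2.76), whose proteins activate Arntl, and the D-box factor Hlf (2.05) and the repressor Bhlhe41 (1.57) were among them. Of the 20 immediate early genes, 9 were tested and all 9 were higher (median 1.31), with Dusp1 at 2.84, Fosb at 2.39 and Fos at 2.23. Of 3 glucocorticoid response genes tested, Mt1 (-0.62) and Mt2 (-0.77) were lower. Of 5 cold and heat response genes, Cirbp, an RNA-binding protein gene induced by cold (1.01), and Rbm3 (0.51) were higher, and Hspa1a was lower (-1.27). The part of the immediate early response, or of the digestion of the tissue, in the level of Per1 and Per2 was not tested.

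Calls were few in the other neuronal clusters. The clock genes had 129 tests over all clusters, 8 of them in Vipr2 neurons. Outside Vipr2 neurons 14 tests passed, while 24.2% of tests over all genes in those clusters did. Per3 was higher in neurons led by Lrrtm4 (62.1 ± 43.9 against 35.1 ± 7.39 CPM, 0.87 ± 0.25), a call that was lost with no filter (0.32) and with DESeq2 (0.41). Nr1d2 was higher in neurons led by Foxb1 (106 ± 62.9 against 66.5 ± 8.03 CPM, 0.72 ± 0.21), which was lost with no filter (0.49). Per3 was lower in neurons led by Gad2 (25.9 ± 11.2 against 41.1 ± 11.1 CPM, -0.56 ± 0.17). The remaining calls were lower ones on 0 to 20 UMIs a cluster. They included Arntl and Nr1d2 in Crym, Clock in Vgf, Hba-a2 and B230323A14Rik, Cry2 in Oxt, Per3 in Tac2, and Per3, Clock and Nr1d1 in Slc6a3 neurons. In Slc6a3 neurons these genes had 0, 1 and 0 UMIs, and the median fold of all genes was -2.22. That median was -1.38 in B230323A14Rik, -1.01 in Vgf and -0.76 in Hba-a2 neurons. It was -0.24 in Tac2, -0.22 in Oxt and -0.11 in Crym neurons.

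The 4 groups were compared to ask whether tamoxifen, and the deletion of Esr1, went with other clock gene levels. Fits of the 4 groups were made over all cells and in each of the 9 cell types, for 5 contrasts. The clock genes gave 360 tests, of which 0 passed adjusted p 0.05 with edgeR. The lowest adjusted p was 0.820, and 45 tests had an unadjusted p under 0.05. DESeq2 gave 0 calls as well. Over all genes the share called was 0% for 4 contrasts and 0.00122% for Esr1 cKO against wild-type under tamoxifen, which is 1 gene. Over all cells, unadjusted p was under 0.05 for 1 of 10 clock genes for tamoxifen in wild-type mice (1.87% of all genes) and 1 for tamoxifen in Esr1 cKO mice (3.25%). The counts were 5 for the interaction, the tamoxifen difference in Esr1 cKO minus that in wild-type mice (4.26%), 3 for Esr1 cKO against wild-type under oil (5.8%) and 1 under tamoxifen (2.71%). With the 9 cell types added, each contrast had 72 clock gene tests and 81739 tests over all genes. Unadjusted p was under 0.05 for 15 clock gene tests and 3865 tests over all genes for the interaction. The genotype difference had 13 and 4108 under oil, and 8 and 2542 under tamoxifen. The tamoxifen difference had 6 and 2437 for wild-type libraries, and 3 and 2882 for Esr1 cKO libraries. All-cell sums hold the cells of each type, so these tests are not independent. In sums over all cells, a lower level per cell and fewer cells of a type with a high level cannot be told apart.

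**Figure D3:**
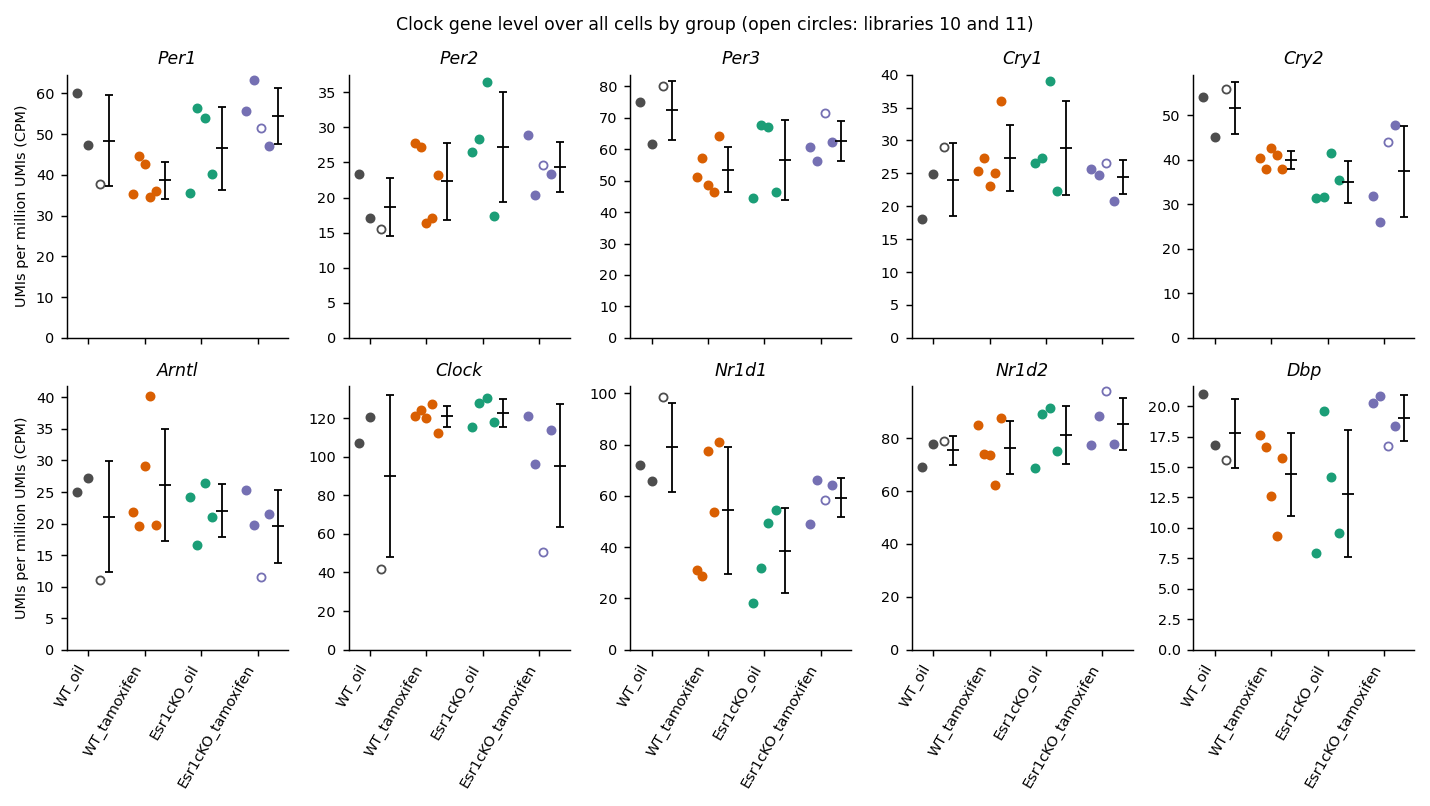
Level of each clock gene over all cells (CPM) in the 4 groups, with 1 point per library, open circles for libraries 10 and 11 and bars for mean ± SD. The 5 wild-type tamoxifen libraries lie at 34.7 to 44.6 CPM for Per1 and the 4 Esr1 cKO tamoxifen libraries at 47.1 to 63.2 CPM, a difference that did not pass after adjustment.

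Nr1d1, the REV-ERB gene that was high in astrocytes, is described first among the group values. Its wild-type oil libraries were at 65.9, 72.2 and 98.7 CPM, and its wild-type tamoxifen libraries at 28.5, 31.0, 53.7, 77.5 and 80.8 CPM. Esr1 cKO oil libraries were at 18.2, 32.0, 49.4 and 54.5 CPM, and Esr1 cKO tamoxifen libraries at 48.8, 58.2, 64.1 and 66.0 CPM. Libraries 3, 4, 7 and 8 held the lowest 4 levels, and they came from the wild-type tamoxifen and Esr1 cKO oil groups. Libraries 1, 2, 5 and 6 came from the wild-type oil and Esr1 cKO tamoxifen groups. The study's methods state that the 4 groups were handled in parallel at the same time. No hour of collection is given for a single library in the sources used here. Within libraries 1 to 8, library order or hour and the interaction therefore cannot be told apart for any clock gene. The same holds there for each tamoxifen and genotype contrast, here and below, since the groups it compares come from opposite sides of this split. The difference of Esr1 cKO from wild-type under oil was -0.98 ± 0.36 (edgeR adjusted p = 0.832) and -0.72 without libraries 10 and 11. Astrocytes were 27.7% to 29.3% of cells in wild-type oil libraries and 13.99% to 26.5% in Esr1 cKO oil libraries, and 20.4% to 31.1% and 15.97% to 25.8% in the wild-type and Esr1 cKO tamoxifen libraries. Within astrocytes Nr1d1 was 122 to 175 CPM in wild-type oil and 32.1 to 119 CPM in Esr1 cKO oil libraries, a difference of -0.62 ± 0.35 (edgeR adjusted p = 0.996), and the part of the share of astrocytes in the value over all cells was not tested. The interaction over all cells was 1.15 ± 0.49 (edgeR adjusted p = 0.958) and 0.84 without them. In endothelial cells the interaction of Nr1d1 was 1.67 ± 0.59 (edgeR adjusted p = 0.958), and with no filter on low counts it was 1.62 ± 0.35 (edgeR adjusted p = 0.00918), the 1 clock gene test called under that setting.

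Per1 was 34.7, 35.2, 35.9, 42.7 and 44.6 CPM in wild-type tamoxifen libraries and 47.1, 51.4, 55.7 and 63.2 CPM in Esr1 cKO tamoxifen libraries. The log2 fold change was 0.53 ± 0.15 (unadjusted p under 0.05; edgeR adjusted p = 1.0) and 0.51 without libraries 10 and 11. Under oil the same genotype difference in Per1 was 0.02 ± 0.17. Per3 was 61.8, 75.1 and 80.2 CPM in wild-type oil and 46.3, 48.6, 51.3, 57.1 and 64.1 CPM in wild-type tamoxifen libraries, where 1 library overlapped (-0.43 ± 0.17; edgeR adjusted p = 1.0). Without libraries 10 and 11 it was -0.29. Dbp was 7.96, 9.60, 14.2 and 19.6 CPM in Esr1 cKO oil and 16.7, 18.4, 20.3 and 20.9 CPM in Esr1 cKO tamoxifen libraries (0.55 ± 0.25; edgeR adjusted p = 1.0). These groups overlapped.

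**Figure D4:**
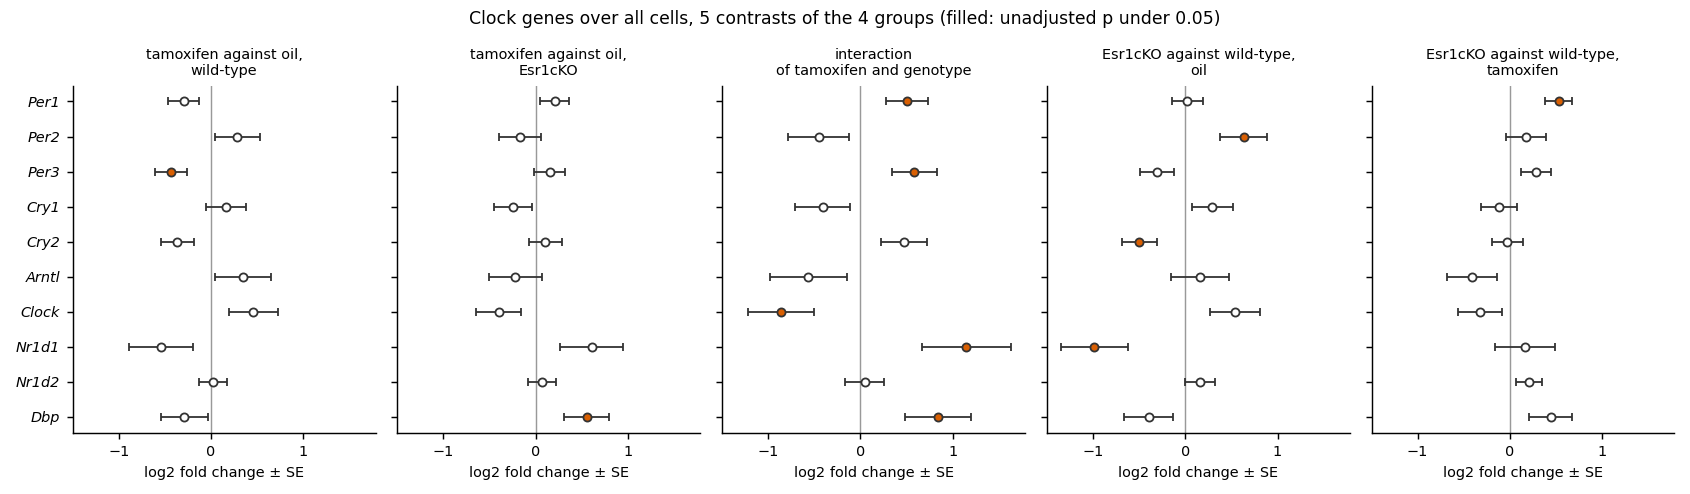
Log2 fold change ± SE of each clock gene over all cells in 5 contrasts of the 4 groups (16 libraries), with filled points for unadjusted p under 0.05. Points are filled for 11 of 50 values, and 0 passed after adjustment, for which the lowest adjusted p in any table was 0.820.

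The activator Clock depended on the libraries that stand apart. Its interaction was -0.86 ± 0.36 (edgeR adjusted p = 0.958) with all 16 libraries and -0.34 without libraries 10 and 11, which were its lowest libraries. For tamoxifen in wild-type mice Clock was 0.46 ± 0.26 and 0.14 without them. Under oil, Per2 was 0.63 ± 0.25 and Cry2 -0.50 ± 0.19 in Esr1 cKO against wild-type, and 0.57 and -0.37 without them. The contrasts share libraries, since each group enters more than 1 of them. Of 23 other clock genes tested over all cells, 0 were called in any contrast, and 0, 0, 0, 3 and 1 had an unadjusted p under 0.05 in the order of contrasts above. Among 19 immediate early genes these counts were 2, 0, 2, 1 and 0, and among 12 glucocorticoid response genes 0, 4, 3, 5 and 1. The 6 cold and heat response genes gave 1, 1, 1, 0 and 4, and 0 genes of the lists were called.

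How the clock genes varied together between mice was read over the 14 libraries that lie together on the first principal component. These libraries pool the 4 groups. Values were not centred by group, here or in the relations between cell types below. Differences between groups and variation within them therefore cannot be told apart in r. Levels over all cells also depend on the mix of cell types. Astrocytes, where Per3 and Dbp were higher, were 13.99% (library 4) to 31.1% (library 16) of cells. The part of this share in r over all cells was not tested. Pearson's r of log2(CPM + 1) over all cells was computed for all 45 pairs with a two-sided permutation test, and 1 pair passed the adjusted threshold. This was Per3 with Dbp (r = 0.78, permutation adjusted p = 0.0351; Spearman's rho = 0.65, permutation adjusted p = 0.162). Without the 2 libraries farthest from the median r was 0.69 over 12 libraries and did not pass (permutation adjusted p = 0.163), and with all 16 libraries r was 0.69. The next pairs were Per1 with Dbp (r = 0.71, rho = 0.78; permutation adjusted p = 0.114 and 0.0675) and Per1 with Per3 (r = 0.69, rho = 0.66; permutation adjusted p = 0.123 and 0.162). Arntl with Nr1d2, a gene and its repressor, had r = -0.65 and rho = -0.42 (permutation adjusted p = 0.123 and 0.395). Over the 45 pairs 26 were positive, with a median r of 0.20. With values centred within successive fours of library numbers, Per3 with Dbp had r = 0.79 and Arntl with Nr1d2 had r = -0.72 (permutation adjusted p = 0.0211 and 0.0362).

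**Figure D5:**
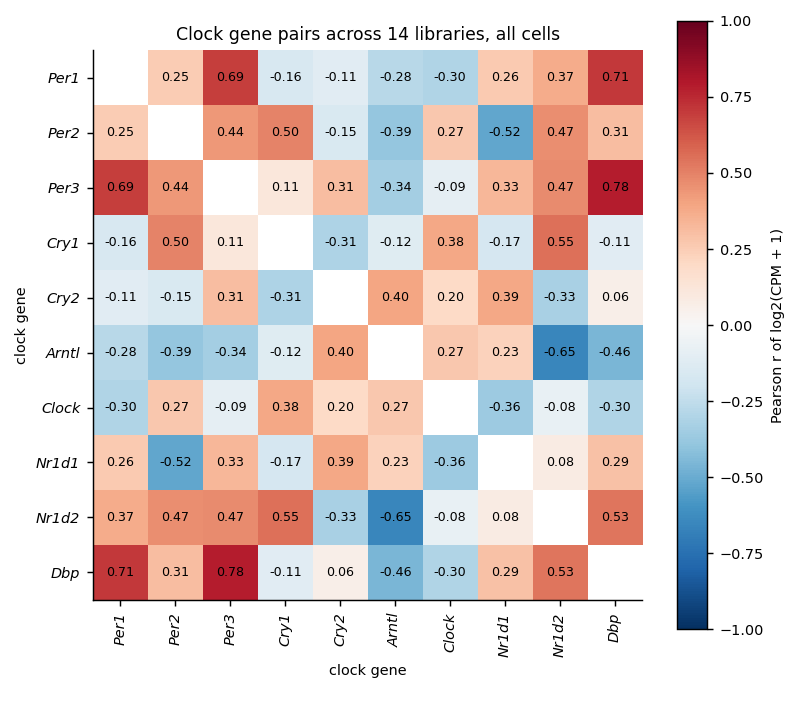
Pearson r of log2(CPM + 1) over all cells for each pair of clock genes across 14 libraries, from -1 (blue) to 1 (red). Per1, Per3 and Dbp form the block of highest values, at 0.69 to 0.78, and Arntl with Nr1d2 is the lowest at -0.65.

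A clock gene could also rise and fall together in different cells of the same mouse. Over 30 such relations (10 genes between astrocytes, neurons and oligodendrocytes), 0 passed, and 4 had an unadjusted permutation p under 0.05. Cry1 between astrocytes and oligodendrocytes had the largest r, at 0.63 (permutation adjusted p = 0.227). The genes most like each clock gene over the 14 libraries, among 9227 genes with a mean of at least 20 CPM, are given as a description without a test. Each r is the highest of that many, and the highest r that chance alone would give was not computed. Per1 was most like Junb, an immediate early gene (r = 0.89), and Clock most like Exosc10 (r = 0.88). Per2 was most like Ap4s1 (0.86), Per3 Lix1 (0.81), Cry1 Ndnl2 (0.85), Cry2 Prrt1 (0.89), Arntl Rnd3 (0.86), Nr1d1 Agrn (0.88), Nr1d2 Rpa2 (0.83) and Dbp 4932441J04Rik (0.88). With all 16 libraries, Clock was most like Sec61a2 (r = 0.98), while Per1 remained most like Junb (0.79).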

How the data were processed

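The 16 libraries were made by Drop-seq from hypothalamus-POA, 1 mouse each. The authors deposited UMI counts (a row a gene, a column a barcode) without normalization, with reads aligned by STAR to mm10 per the submitters' processing notes. Groups were taken from the strain and injection labels. Cells with 200 to 4000 genes and at most 15% mitochondrial UMIs were kept, after the study's filters. Clustering used Seurat 5.3.0 in R 4.3.3 (2000 variable genes, 500 for neurons, 30 dimensions, resolution 0.05, with 0.5 for the finer clusters and 0.7 for neurons), leaving out the 10 clock genes and 24 other clock genes. Doublets were called by library (476 cells) and removed only in an alternative.

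Sums of UMIs for each cell type of a library were tested with edgeR 4.0.16 (quasi-likelihood, TMM scaling, filter on low counts) across all genes, with the library as a block between cell types and all 4 groups in 1 fit for the contrasts. P-values were adjusted by the Benjamini-Hochberg method over all genes of a fit and called at 0.05. The SE of an edgeR value is the size of its log2 fold change divided by the square root of the F of its test. Levels are CPM. Kept depth was 1717573 to 5457033 UMIs a library, with cell type medians of 481 to 1489 UMIs a cell, so single cells rarely held a UMI of a clock gene, and intervals cover counting error only. Permutation tests of correlations used 100000 resamples and log2(CPM + 1). The fits were also run on counts simulated from 1 mean profile with known changes, without the differences between libraries seen here. No result above rests on those runs. Alternatives were DESeq2 1.42.0, total UMI scaling, no filter, removal of doublets or of shared barcodes, a minimum of 500 genes a cell, a term for successive fours of libraries, a pseudocount of 5 CPM and leaving out each library. The text names the 10 clock genes, list genes with the largest changes and the most alike genes. The clock genes and gene lists were chosen with earlier results of these data known. The labels do not tie libraries to preparation days. A call of 1 clock gene in 1 neuronal cluster is not reported here.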

Additional observations from a re-analysis of the deposited data

How the results depend on the processing

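By cell type and in Vipr2 neurons, 0 values of a clock gene that passed the threshold turned their direction under any alternative run. In the contrasts of groups no value passed, and up to 13 values of a contrast changed sign under 1 alternative. In the neuronal clusters, 22 calls of clock genes became 60 with no filter on low counts, which also tests more genes (240 against 129 tests). For the interaction, 0 calls became 1 with no filter, Nr1d1 in endothelial cells. The 1 called pair of clock genes across libraries became 2 when values were centred within successive fours of libraries and 0 without the 2 libraries farthest from the median. The cause was not tested. Leaving out each library in turn gave 0 to 0 calls of clock genes in each of the 5 contrasts, where a group left with fewer libraries shares the spread of the other groups. No paired analysis was possible because the groups share no replicate number and the labels give no day. A fit with a term for successive fours of libraries, of which the last holds no wild-type oil library, gave 0 calls in each contrast, with Nr1d1 over all cells at -1.18 for Esr1 cKO against wild-type under oil and 1.52 for the interaction. Depth limits the small clusters most: several clock genes there had under 10 UMIs, and in cells of the Vipr2 cluster Cry1 and Dbp had 96 and 33. The removal of shared barcodes and the finer clusters were chosen after seeing the data.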
